A study of Homo sapiens with 24 samples.

Results

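The genes of the nuclear pore complex and of the transport receptors that pass through it were examined for Myc peaks. They were 58 named genes, chosen by function, out of 20037 protein-coding genes of the main chromosomes. By role they were 29 nucleoporins, 5 genes of the Ran cycle, 17 importins and 7 exportins. A gene was marked when a peak reached within 1 kb of either end of its RefSeq span in hg38. Myc was profiled by CUT&Tag on lightly fixed cells, in which an antibody to Myc guides a tethered transposase that inserts sequencing adapters into nearby DNA. Both libraries came from the pancreatic cancer cell line Mia PaCa-2 carrying a doxycycline-inducible ("teton") MED30 construct, MED30 being part of Mediator, which bridges transcription factors and RNA polymerase II. Of the 24 samples of the series, the Myc library with no doxycycline and the Myc library titled 5 days of doxycycline were used, 1 library per condition, and the other 22 samples were not analysed here. The shared protocol in the labels gives 2 days of doxycycline, and the title was followed here. Neither the doxycycline dose nor whether the line is a single clone is stated in the labels.

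The nuclear pore complex is a ring-shaped channel through the nuclear envelope, built of nucleoporins arranged as outer rings, an inner ring, a membrane ring, a central channel and fibrils on either face. Importins and exportins carry proteins and RNA through it, and the small GTPase Ran, bound to GTP in the nucleus and to GDP in the cytoplasm, gives that traffic its direction. Myc is a transcription factor that binds DNA with its partner Max, preferably at the E-box CACGTG, and is known for occupying promoters of many genes of growth.

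The 2 lists held 3472 and 6727 peaks on the chromosomes used, and the labels do not state read totals. Depth is therefore known only through values at the peaks, recovered from the deposited fold and p-value. These are the fragments over each summit and the local background. Median fragments were 11 and 12 over all peaks, but the 2 lists hold different peaks. Over all genes with a peak in both lists the medians were 12 and 18. With 1 library per condition there is no replicate check, so no test was made, and each difference below is one between these 2 libraries. Intervals are exact Poisson 95% intervals of fragments, or exact binomial (Clopper-Pearson) ones for shares and for ratios of fragments. Those of fragments and of their ratios cover counting error only. Those of shares treat the named genes as random draws, which they were not, and do not measure how certain a peak call is. No IgG library was used here to remove background peaks. Myc peaks do not measure expression, so the cell line was not checked by marker levels. Reads of POM121 and RANBP2 can be shared with near-identical copies elsewhere in the genome, and the labels do not say how such reads were mapped.

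The sequences below show where E-box letters lie before the starts of genes with Myc peaks. The letters CACGTG, which read the same on both strands, were searched in 300 bp windows from 250 bases before to 50 after each start in the RefSeq table for GRCh38.p14, which held 52 of the 58 genes. Shown first are the 6 genes with a peak in both lists and a CACGTG in a window: the importin alpha KPNA3, the GTPase RAN, the exportin XPO1 at its inner start, and the importin beta relatives TNPO2, IPO7 and IPO4. SEH1L and NUP35 follow as genes with strong Myc peaks and no CACGTG in the window. They were chosen after their values were seen, as were all but KPNA3 of the first 6. Each line holds the 250 bases before the start, with CACGTG in capitals.
KPNA3: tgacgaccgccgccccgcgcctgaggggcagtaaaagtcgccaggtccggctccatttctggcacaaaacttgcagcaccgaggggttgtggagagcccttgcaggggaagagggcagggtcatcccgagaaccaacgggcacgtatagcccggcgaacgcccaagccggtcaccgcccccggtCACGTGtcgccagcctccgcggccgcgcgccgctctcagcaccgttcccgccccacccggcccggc
RAN: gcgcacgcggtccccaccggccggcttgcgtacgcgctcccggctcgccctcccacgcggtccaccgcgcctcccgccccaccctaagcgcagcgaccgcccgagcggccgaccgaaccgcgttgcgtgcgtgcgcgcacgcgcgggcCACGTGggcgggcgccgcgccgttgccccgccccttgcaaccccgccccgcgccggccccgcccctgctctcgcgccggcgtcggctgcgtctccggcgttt
XPO1: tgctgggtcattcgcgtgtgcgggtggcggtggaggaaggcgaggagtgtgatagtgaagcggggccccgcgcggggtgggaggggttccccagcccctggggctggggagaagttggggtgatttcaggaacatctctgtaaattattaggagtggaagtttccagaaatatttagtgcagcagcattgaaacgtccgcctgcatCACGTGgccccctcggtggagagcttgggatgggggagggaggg
TNPO2: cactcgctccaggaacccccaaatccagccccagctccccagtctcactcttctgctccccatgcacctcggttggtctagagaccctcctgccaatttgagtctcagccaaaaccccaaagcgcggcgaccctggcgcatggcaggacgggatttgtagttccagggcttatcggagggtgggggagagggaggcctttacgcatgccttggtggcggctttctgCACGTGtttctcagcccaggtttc
IPO7: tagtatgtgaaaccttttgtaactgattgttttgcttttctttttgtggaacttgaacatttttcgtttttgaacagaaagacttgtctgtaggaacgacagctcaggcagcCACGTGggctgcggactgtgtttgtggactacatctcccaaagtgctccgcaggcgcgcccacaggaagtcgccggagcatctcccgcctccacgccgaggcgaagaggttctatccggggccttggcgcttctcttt
IPO4: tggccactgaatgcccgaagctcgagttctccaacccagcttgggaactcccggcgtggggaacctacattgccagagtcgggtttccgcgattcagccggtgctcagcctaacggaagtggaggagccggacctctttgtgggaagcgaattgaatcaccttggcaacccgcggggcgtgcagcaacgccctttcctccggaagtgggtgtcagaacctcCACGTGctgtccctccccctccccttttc
SEH1L: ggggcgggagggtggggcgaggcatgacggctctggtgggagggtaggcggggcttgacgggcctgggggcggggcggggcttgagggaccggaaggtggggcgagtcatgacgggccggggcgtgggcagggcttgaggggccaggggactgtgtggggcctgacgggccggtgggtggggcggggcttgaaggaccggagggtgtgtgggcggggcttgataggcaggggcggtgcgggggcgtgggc
NUP35: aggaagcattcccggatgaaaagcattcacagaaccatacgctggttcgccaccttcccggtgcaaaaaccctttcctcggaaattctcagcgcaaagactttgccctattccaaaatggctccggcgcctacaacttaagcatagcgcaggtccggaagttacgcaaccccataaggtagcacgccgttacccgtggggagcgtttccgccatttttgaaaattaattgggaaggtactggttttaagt
In genome order these stretches are chr13:49792683-49792932 (minus strand, KPNA3), chr12:130871816-130872065 (plus, RAN), chr2:61537088-61537337 (minus, XPO1), chr19:12723933-12724182 (minus, TNPO2), chr11:9384402-9384651 (plus, IPO7), chr14:24188817-24189066 (minus, IPO4), chr18:12947761-12948010 (plus, SEH1L) and chr2:183124193-183124442 (plus, NUP35). The motif began 66 bases before the start in KPNA3, 102 in RAN, 44 in XPO1, 24 in TNPO2, 138 in IPO7 and 29 in IPO4. In KPNA3 it lay 114 bp from the Myc summit without doxycycline and 82 bp at day 5, and in IPO4 74 and 151 bp. In XPO1 the distances were 234 and 292 bp, and in IPO7 615 and 573 bp. Those of XPO1 are to a second pair of peaks, with 14 and 20 fragments. The peaks that marked XPO1 had summits in the window of its other tabulated start, which held no CACGTG. In RAN the summits were 1096 and 915 bp from the motif, and in TNPO2 1265 and 1126 bp, so those peaks did not centre on it. The TNPO2 summits lay 432 and 571 bp before another tabulated start inside the gene, whose window held no CACGTG.

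Counted over genes, a window with CACGTG was found for 9 of the 52 genes (17.3%), beside 10.9% of all 15843 protein-coding genes in the table. Of the 23 genes with a window and a peak in both lists 6 had it, beside 19.3% of all genes in both lists. Of the 11 listed at day 5 only 0 had it, beside 12.9%, and of the 17 in neither list 3, beside 8.69%. The 3 were NUP188, whose window held 2 matches, NUP50 and RCC1. Over all genes, 21.6% of those with a Myc summit inside a window in both lists had CACGTG there, and 8.47% of those with no peak over the window. The variant CACGCG, searched on both strands and counted where matches overlap, was in a window of 5 of 6 exportins, 3 of 4 Ran cycle genes, 5 of 28 nucleoporins and 0 of 14 importins, beside 18.1% of all genes. Median GC content of the richest window per gene was 78% for Ran cycle genes, 71.7% for exportins, 64.2% for nucleoporins and 62% for importins, beside 64.7% for all genes, and its part in these counts was not tested. A match is a description of letters and not a binding site.

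Myc peaks lay beside many genes of nuclear transport in both libraries. Without doxycycline 26 of the 58 genes had one (44.8%, interval 31.7 to 58.5), beside 14.4% of all protein-coding genes, and at day 5 38 had one (65.5%, 51.9 to 77.5), beside 27.4%. Both lists held 25 genes (12.9% of all genes are in both), 13 were listed at day 5 only (14.5%), 1 without doxycycline only (1.57%), and 19 in neither (71.1%). These shares of all genes include silent ones, and the 58 genes were not matched to others on activity. When the day 5 list was reduced to its 3472 highest-ranked peaks, 31 of the 58 genes were listed there, beside 15.7% of all genes.

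By role, nucleoporins went from 11 to 20 of 29 genes (37.9% to 69%) and importins from 9 to 11 of 17 (52.9% to 64.7%). Ran cycle genes went from 1 to 2 of 5 (20% to 40%), while exportins had 5 of 7 in each list (71.4%). The share of all protein-coding genes also rose, from 14.4% to 27.4%. Another gene end lay nearer the summit for 1 of the 11 nucleoporins without doxycycline and 5 of the 20 at day 5. For importins these counts were 0 and 0, and for Ran cycle genes and exportins 0 and 1 each. Over all genes with a peak it was so for 603 of 2894 and 1064 of 5486. With equal numbers of peaks the day 5 counts were 16 nucleoporins, 9 importins, 1 Ran cycle gene and 5 exportins, beside 15.7% of all genes. Of the 13 genes listed at day 5 only, 9 were nucleoporins, which make up 29 of the 58 genes. Over all genes 14.5% were listed at day 5 only. The differences between roles were not tested, because genes are not replicates of a condition.

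**Figure D1:**
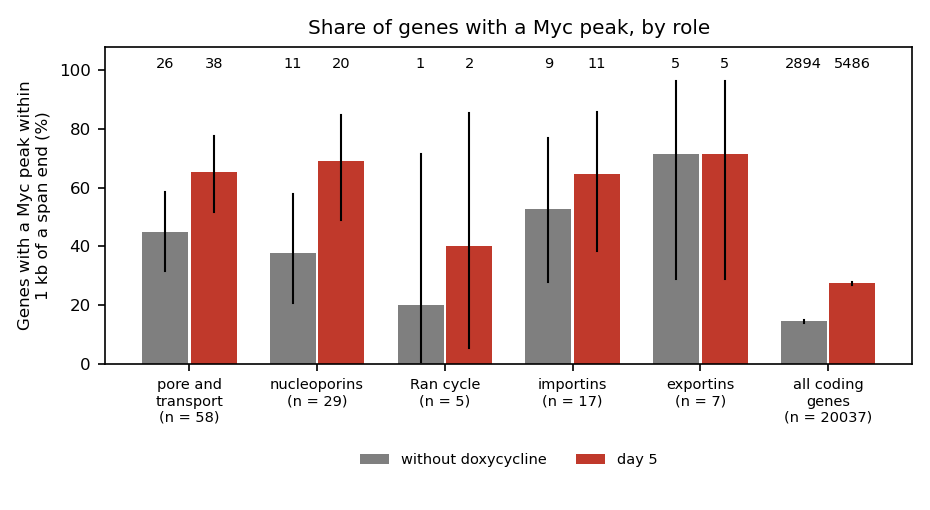
Share of genes with a Myc peak within 1 kb of a span end, in percent, for the 58 pore and transport genes, their 4 roles and all 20037 protein-coding genes; bars are 1 library each, lines are exact binomial 95% intervals, and numbers at the top are genes. Nucleoporins stand at 11 and 20 genes, and exportins at 5 in both libraries.

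Peak strength was uneven among the 58 genes. Without doxycycline 5 of them had a peak in the upper 10% of the list by −log10 q, beside 1.75% of all genes. They were the nucleoporins SEH1L, NUP62, NDC1, TPR and NUP88. At day 5 there were 8 (3.49% of all genes): SEH1L, NUP62, NUP88, NDC1, RANBP2, RAN, IPO13 and KPNA3. Those shares of all genes include genes without a peak. Among genes with a peak, the upper 10% held 19.2% of the 26 without doxycycline, beside 12.1% over all genes. At day 5 it held 21.1% of the 38, beside 12.8%. The median gene with a peak had 12.5 summit fragments without doxycycline and 16 at day 5, beside 11 and 12 over all genes with a peak. Nucleoporins had medians of 16 and 18.5, importins 9 and 15, and exportins 7 and 13.

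**Figure D2:**
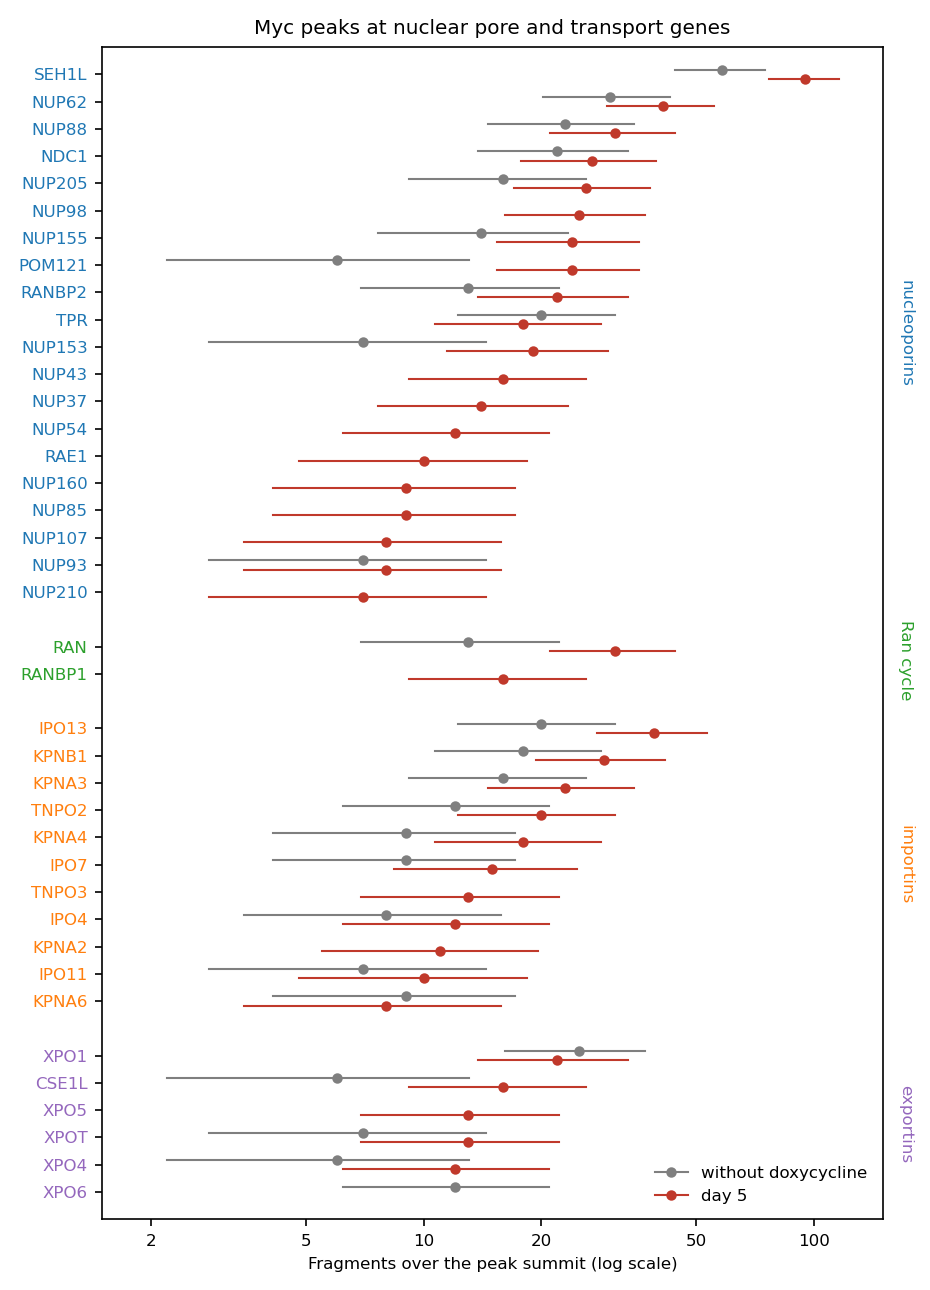
Fragments over the summit of the highest-ranked Myc peak (log scale) for each of the 39 genes with a peak, by role, without doxycycline (grey) and at day 5 (red); points are 1 library each and lines exact Poisson 95% intervals, and a missing point means no listed peak. SEH1L stands highest with 58 and 95 fragments, and XPO6 is the gene with a grey point alone.

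SEH1L was the strongest Myc site of the list. It encodes a WD-repeat protein shared by the outer ring of the pore and by the GATOR2 complex of nutrient sensing. The gene spans 12948011 to 12987536 on chromosome 18, and its day 5 peak, at 12947672 to 12948691, covered the start. The summit held 58 fragments without doxycycline (interval 44 to 75) and 95 at day 5 (76.9 to 116.1), at ranks 19 and 11 of the lists. The deposited fold, a ratio to local background, was 13.8 without doxycycline and 13.6 at day 5. The summits lay 217 and 44 bp past the start.

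The other genes grouped here under the outer ring, or Y complex, which scaffolds the pore on both faces, looked different from SEH1L. AHCTF1 (ELYS) was not in this group and is counted below with other pore genes. It had a peak in both lists, with 12 fragments without doxycycline and 16 at day 5. NUP107, NUP160, NUP85, NUP37 and NUP43 were listed at day 5 only, and NUP133 and SEC13 in neither list. NUP43 had 16 fragments (9.15 to 26) and NUP37 14, both above the median of 12 over all genes with a day 5 peak, and NUP160 had 9, NUP85 9 and NUP107 8, below it. For 3 of the 5 another gene end lay nearer the summit, SLC35E3 for NUP107, PARPBP for NUP37 and PCMT1 for NUP43. NUP107 had a second day 5 peak, with 4 fragments and a summit 20 bp from its start, while its 8-fragment peak lay at the far end of the gene. With equal numbers of peaks NUP160 and NUP85 were no longer listed at day 5.

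The inner ring, which anchors the pore to the membrane, had 3 of 5 genes in both lists, beside 12.9% of all genes. NUP205 had 16 fragments (9.15 to 26) without doxycycline and 26 (17 to 38.1) at day 5, and NUP155 had 14 and 24. NUP93, the linker that holds the inner ring together, had 7 and 8 fragments, in peaks that did not overlap and had summits 725 bp apart. NUP188 was in neither list.

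NUP35 was not marked by the rule, although strong Myc peaks lay at its start. Its RefSeq span on chromosome 2 begins 6929 bp before the start given in the promoter table, and the peaks lay at that inner start. The peak at 183124328 to 183124927 had 33 fragments (22.7 to 46.3) without doxycycline and ranked 82, and the one at 183124118 to 183124932 had 39 (27.7 to 53.3) at day 5 and ranked 157. Among the peaks of the 58 genes, SEH1L alone had more fragments than NUP35 without doxycycline. At day 5 SEH1L and NUP62 had more, and IPO13 as many. RANGAP1, which makes Ran hydrolyse GTP, had a day 5 peak of 11 fragments 13 bp from an inner start 16182 bp from its span end. TNPO3, marked at day 5 only, had a peak of 12 fragments without doxycycline 317 bp past a start, just beyond the window. Counting tabulated starts as well as span ends, an addition made after seeing the data, gave 28 of 58 genes without doxycycline (15.4% of all genes) and 40 at day 5 (29.2%), with 27 in both (13.8%).

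Of the membrane ring, NDC1, which spans the envelope, had 22 fragments without doxycycline (13.8 to 33.3) and 27 at day 5 (17.8 to 39.3). Its summits lay 2 bp apart. POM121, another membrane protein of the pore, had 6 (2.2 to 13.1) and 24 (15.4 to 35.7) fragments, the largest ratio in the list. Its near-identical copy POM121C had 9 and 8, in peaks that did not overlap. NUP210 was listed at day 5 only, with 7 fragments, and AAAS in neither list.

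Of the central channel, whose phenylalanine-glycine repeats form the permeability barrier, NUP62 had 30 fragments (20.2 to 42.8) and 41 (29.4 to 55.6). Its peaks on chromosome 19 covered the start, with summits 333 and 281 bp before it. They also reached within 1 kb of an end of ATF5 and of IL4I1. NUP98, a frequent fusion partner in leukaemia, was listed at day 5 only with 25 fragments (16.2 to 36.9), and an end of PGAP2 lay nearer its summit. NUP54 was listed at day 5 only with 12, and NUP58 in neither list.

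On the cytoplasmic side, NUP88 had 23 fragments (14.6 to 34.5) and 31 (21.1 to 44), in a peak it shared with its neighbour RPAIN, whose end was the nearer to the summit at day 5. RANBP2, the SUMO ligase of the cytoplasmic fibrils, had 13 (6.9 to 22.2) and 22 (13.8 to 33.3), at its start. RAE1, an mRNA export factor, was listed at day 5 only with 10 fragments, and NUP214 and NUP42 in neither list. In the nuclear basket, TPR, which forms its filaments, had 20 fragments (12.2 to 30.9) and 18 (10.7 to 28.4), in a peak shared with ODR4, whose end was the nearer without doxycycline. NUP153 had 7 (2.81 to 14.4) and 19 (11.4 to 29.7), with both summits inside the gene at 646 and 651 bp from the start. NUP50 had none.

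Of the 5 Ran cycle genes 1 was marked without doxycycline (20%, interval 0.505 to 71.6, beside 14.4% of all genes) and 2 at day 5 (40%, 5.27 to 85.3, beside 27.4%), or 3 when tabulated starts were counted too. RAN itself, on chromosome 12, had 13 fragments (6.9 to 22.2) without doxycycline and 31 (21.1 to 44) at day 5. Both summits lay upstream, 1198 and 1017 bp before the start, so RAN was marked only because the edges of its peaks came within 0.535 and 0.304 kb. RANBP1, which helps RanGAP release Ran from importins, was listed at day 5 only with 16 fragments, and an end of TRMT2A lay nearer that summit. RCC1, the chromatin-bound exchange factor that loads Ran with GTP, and NUTF2, which returns Ran to the nucleus, had no peak within 1 kb. RCC1 had a peak of 9 fragments without doxycycline 4.59 kb inside its span, and NUTF2 one of 9 fragments at day 5 7.06 kb inside.

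Among importins, the alpha adaptors read nuclear localisation signals and the beta family ferries cargo through the channel. KPNA3 had 16 fragments (9.15 to 26) without doxycycline and 23 (14.6 to 34.5) at day 5, KPNA4 had 9 and 18, and KPNA6 9 and 8. KPNA2 was listed at day 5 only with 11, and KPNA1 and KPNA5 in neither list. KPNB1, the main importin beta, had 18 (10.7 to 28.4) and 29 (19.4 to 41.6). IPO13, which carries cargo both ways, had the most summit fragments of the importins, with 20 (12.2 to 30.9) and 39 (27.7 to 53.3), although by −log10 q KPNA3 ranked higher without doxycycline (437 against 487). Its day 5 peak lay at 43946329 to 43947182 on chromosome 1, over the start. TNPO2, a receptor for RNA-binding proteins, had 12 and 20 fragments, IPO7 9 and 15, IPO4 8 and 12, and IPO11 7 and 10. TNPO3, which imports SR splicing factors, had 13 at day 5. IPO5, IPO8, IPO9 and TNPO1 were in neither list.

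Among exportins, XPO1 (CRM1), the receptor for leucine-rich export signals, had 25 fragments (16.2 to 36.9) without doxycycline and 22 (13.8 to 33.3) at day 5. A second pair of peaks, with 14 and 20 fragments, lay 190 and 248 bp past its inner start, the one with CACGTG. CSE1L, which returns importin alpha to the cytoplasm, had 6 (2.2 to 13.1) and 16 (9.15 to 26), and XPO4 6 and 12. XPO5, the exporter of pre-miRNAs, was listed at day 5 only with 13, in a peak shared with POLH. XPO7 was in neither list, with its nearest peaks 3.69 and 3.44 kb away. XPOT, the tRNA exporter, counted in both lists through different sites: 7 fragments 581 bp past the start without doxycycline, and 13 at the far end beside TBK1 at day 5.

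XPO6, which exports actin with profilin, was the single gene listed without doxycycline only. On chromosome 16, at 28212124 to 28212547, its peak had 12 fragments (6.2 to 21) and a summit 370 bp before the start, at rank 1061. The nearest day 5 peak was 79.8 kb away. A missing peak means that no site passed the authors' threshold there and does not show that Myc was absent.

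The 25 genes in both lists mostly had more fragments at day 5, as all genes did. The ratio of day 5 to no doxycycline fragments was above 1 for 22 of the 25 and below 1 for TPR, XPO1 and KPNA6. Its median was 1.64, beside 1.43 over the 2580 genes in both lists, of which 81.5% were above 1. Summed over the 25 genes the fragments were 381 and 603, a ratio of 1.58 (interval 1.39 to 1.8), which includes the 1.44 of all genes in both lists. These values count XPOT and NUP93, whose peaks lay at different places in the 2 libraries, and the median was also 1.64 over the 23 genes with overlapping peaks. The interval lay above 1 for SEH1L, POM121, NUP153, RAN and IPO13, 5 of 25 genes, beside 13.5% of all genes in both lists. It excluded the median of all genes for POM121 alone, at 4 (1.59 to 12), beside 2.02% of all genes above it and 1.71% below. The deposited fold, a ratio to local background, was 13.8 and 13.6 for SEH1L, so it did not rise there. For POM121 the fold was 4.61 and 8.99, for NUP153 4.73 and 6.62, for RAN 5.56 and 7.46, and for IPO13 8.34 and 11.2. The libraries were not scaled to each other, so depth and occupancy cannot be told apart in a ratio shared by all genes.

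**Figure D3:**
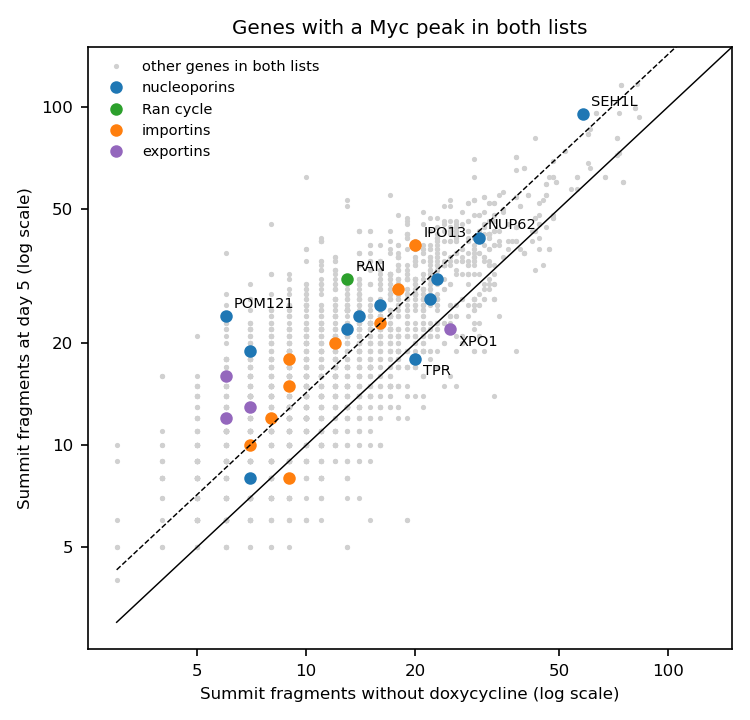
Summit fragments without doxycycline (x) and at day 5 (y), both on log scales, for genes with a Myc peak in both lists; coloured points are the 25 pore and transport genes and grey points the others, with equality as a solid line and the all-gene median ratio of 1.43 as a dashed line. POM121, with 6 and 24 fragments, lies farthest above the dashed line among the coloured points, and TPR, XPO1 and KPNA6 lie below the solid one.

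For 23 of the 25 genes the highest-ranked peaks of both lists overlapped, with XPOT and NUP93 the exceptions, beside 97.3% of the 2580 genes in both lists. Summits were within 100 bp of each other in 12 of the 25, beside 44.0% of all genes in both lists. They were 121 bp apart at the median, beside 120 bp. Genes listed at day 5 only had a median of 12 fragments there, and genes in both lists 22, while over all genes these medians were 10 and 18.

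The rule admitted only peaks near a span end, which is often a start, so nearness to a start is largely fixed by it and is given as a description. Without doxycycline 23 of 24 summits were within 1000 bp of a start and at day 5 31 of 34, beside 90.9% and 91% of all genes with a peak and a tabulated start. The median distance was 237 and 254.5 bp, beside 239 and 221 bp. RAN lay beyond 1000 bp in both libraries, and at day 5 the far-end peaks of NUP107 and XPOT did too. A peak also reached within 1 kb of another protein-coding gene for 4 of 26 genes without doxycycline and 11 of 38 at day 5, beside 42.3% and 39.7% of all genes with a peak.

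**Figure D4:**
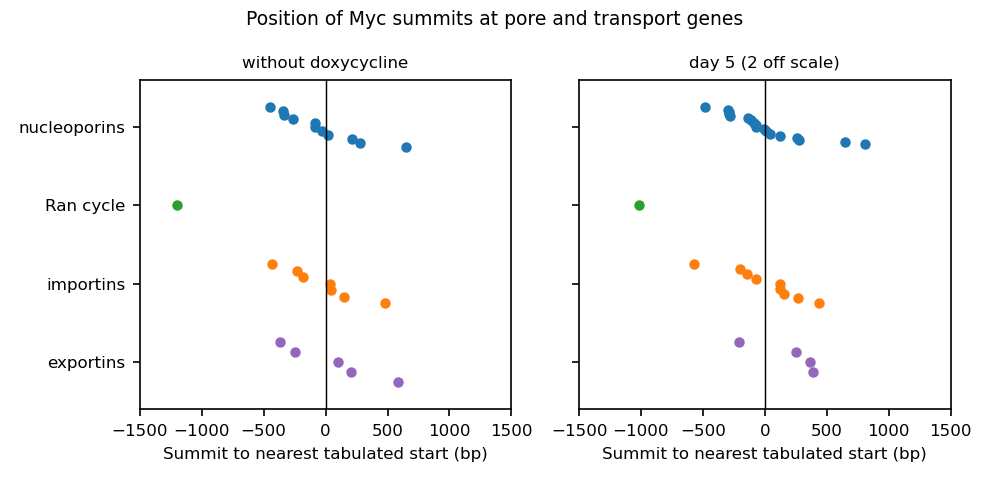
Signed distance in bp from the nearest tabulated start to the summit of the highest-ranked Myc peak, negative before the start, by role, without doxycycline (24 genes) and at day 5 (34 genes, with NUP107 and XPOT off scale). Apart from RAN, at -1198 and -1017, the points shown lie within 1000 bp of a start.

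Neighbouring parts of the pathway were counted from lists of other genes. Of 13 other pore, karyopherin and Ran genes 5 had a peak without doxycycline and 7 at day 5. AHCTF1 (ELYS), which seats the pore on chromatin, had 12 and 16 fragments, RANGRF 6 and 13, SNUPN, the snRNP import adaptor, 7 and 11, and RANBP3 10 at day 5 only. HIKESHI, which imports HSP70, was listed without doxycycline only, with 5. Of 22 mRNA export genes 5 and then 14 had a peak, and 9 of the 14 were listed at day 5 only. Put the other way, 35.7% of the 14 were also listed without doxycycline, beside 47% of all genes with a day 5 peak. The helicase DDX39A had 18 and 31 fragments and CHTOP 14 and 21, and PCID2 and DDX19B had 21 and 20 at day 5 only. An end of AARS1 lay nearer the DDX19B summit, and one of S100A13 nearer the CHTOP summit without doxycycline. The PCID2 peak also reached within 1 kb of CUL4A. Of 16 nuclear lamina and envelope genes 4 and then 7 had one. LMNB2 had 23 and 31, NEMP1 14 and 22, and TOR1A and LMNB1 15 and 16 at day 5 only, whereas BANF1 had 14 without doxycycline only. For LMNB2 and BANF1 another gene end lay nearer the summit. In percent the lists stood at 38.5 and 53.8 for the other pore, karyopherin and Ran genes, 22.7 and 63.6 for mRNA export, and 25 and 43.8 for the lamina and envelope. Without doxycycline the intervals were 13.9 to 68.4, 7.82 to 45.4 and 7.27 to 52.4, beside 14.4% of all genes. At day 5 they were 25.1 to 80.8, 40.7 to 82.8 and 19.8 to 70.1, beside 27.4%. For 8 of the 14 mRNA export genes with a day 5 peak, that peak also reached another gene, beside 39.7% of all genes with one. Differences between these lists and all genes were not tested.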

How the data were processed

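The deposited peak lists of 2 Myc CUT&Tag libraries, 1 per condition, were used, grouped by their titles. The other 22 samples were not analysed here. The submitters' processing notes name MACS2, Bowtie2, Trim Galore and deepTools, and the build hg38, without versions or settings. The authors deposited, for each peak, a score, a fold (a ratio to local background), a −log10 p-value and −log10 q-value, and the summit offset. Each list belongs to 1 library, and whether an IgG control entered peak calling is not stated in the labels. These values ranked peaks within a list, by −log10 q, and gave fragments over the summit, taking the fold as (fragments + 1)/(background + 1) and p as a Poisson tail, within 0.001 in −log10 p. The recovery and the assignment of peaks to genes were tested on simulated data.

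Spans of protein-coding genes and starts with their sequence came from NCBI RefSeq, GRCh38.p14, the hg38 assembly. All 109 symbols of the lists matched, and 52 of the 58 genes had a tabulated start. A gene took its highest-ranked peak within 1 kb of a span end. All 58 genes were named; of each other list, up to 4 with the highest-ranked day 5 peak and those listed only without doxycycline. Sequences were to be those of up to 6 genes with CACGTG and a summit in the window in both lists, which KPNA3 alone met. The 58 genes, lists and settings were chosen with earlier results of these data known. The alternatives tried kept the higher-ranked 50% of peaks, −log10 q of at least 3, equal numbers of peaks, windows of 500 and 2500 bp, starts only, the summit in place of the peak and the nearest gene only. Further ones were 50% reciprocal overlap, summits within 500 bp and the peak nearest a gene end. Counting tabulated starts beside span ends, and overlapping peaks only, were chosen after seeing the data. Python 3.11.15, pandas 2.3.3 and scipy 1.17.1 were used.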

Additional observations from a re-analysis of the deposited data

How the results depend on the processing

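Of 91 recomputed values, 79 stayed within 1.5 times the count reported, or within the counting interval for the fragment ratio, and 12 did not. Those 12 follow. With the higher-ranked 50% of each list, which holds fewer peaks by construction, 14 genes had a peak without doxycycline, 12 in both lists and 2 without doxycycline only, and 12 of 14 peaks without doxycycline overlapped a day 5 peak, in place of 23 of 26. With equal numbers of peaks, 8 genes were listed at day 5 only and 3 without doxycycline only, and 1 Ran cycle gene had a peak at day 5. With 500 bp windows, 2 genes were listed without doxycycline only, and Ran cycle genes numbered 0 without doxycycline and 1 at day 5. These moves follow from the settings. With equal numbers of peaks, genes whose day 5 peak ranked below the 3472 kept dropped out, among them RANBP1 at rank 3812, NUP93 and KPNA6. At 500 bp RAN without doxycycline, and RANBP1 and XPOT at day 5, dropped out, with peaks 0.535, 0.861 and 0.655 kb from a span end. With the nearest gene end only, 3 genes were listed without doxycycline only, and with tabulated starts only, 2. Under the first NUP88 and XPOT lost their day 5 peaks to nearer gene ends, and under the second XPOT lost its far-end peak. The median fragment ratio ran from 1.52 to 1.67. No paired analysis was possible because each condition had 1 library and the result comes from no test. Peaks with fewer than 10 summit fragments, 42.2% and 34.8% of the lists, are those whose presence in a list is least certain at this depth.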
